A study of Mus musculus with 16 samples.

Results

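Sciatic nerves of C57BL/6 mice 7 days after a crush injury were compared with uninjured C57BL/6 nerves across all genes on the array. The members of this comparison were the 2 arrays whose titles place them at day 7 and the 2 whose titles place them in uninjured C57BL/6 nerve, so 4 of the 16 arrays of the series. RNA was measured on Affymetrix mouse arrays of 45101 probe sets, and each gene was read from 1 probe set, that of the highest average signal across the series. That gave 18193 genes, of which 14545 lay above a filter on dim signal (log2 5.37) and were tested.

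Both groups were wild type C57BL/6 mice aged 8 to 12 weeks. The uninjured mice had no surgery, and the day 7 mice had a microcrush of the left sciatic nerve at mid-thigh. From the injured nerves a segment of 4 mm was cut from the distal stump, between 1 and 5 mm beyond the lesion, after the connective tissue had been removed, and from the uninjured nerves a segment of equal length. The series also holds C57BL/6 nerves at days 3 and 14 and C57BL/6 OlaHsd-Wlds nerves, here WldS, at the same 4 times, with 2 arrays in each of the 8 groups and 56 mice per strain. WldS mice carry the slow Wallerian degeneration allele, which protects cut axons. Tissue was pooled within a group for the extraction of RNA, the number of mice in a pool is not stated, and the labels call the 2 arrays of a group biological replicates. They were taken as separate pools, so n = 2 in each group and every p-value reflects the spread between pools.

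After a crush, the axons beyond the lesion break down and their Schwann cells lose contact with them. Schwann cells then shut down the genes of the myelin sheath, take on a repair state, divide and secrete trophic factors, while macrophages enter the nerve and clear myelin debris. The basal lamina tubes survive a crush, and regrowing axons that reach the distal stump are wrapped in myelin again.

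The labelled tissue was checked first. Sox10, a transcription factor of the Schwann cell lineage, read 12.15 and 12.08 in the uninjured arrays and 11.74 and 11.67 at day 7 on the log2 scale, and S100b, a calcium-binding protein of these cells, read 11.82 and 11.89 and then 10.29 and 10.41. All 8 measured Schwann cell markers lay above the filter in the 4 arrays, with a log2 of their summed signal of 15.20 and 15.24 before and 14.44 and 14.60 after injury. Of these 8, 3 were higher at day 7 and 4 lower by the test described below, with Sox2 and Erbb3 among the higher. Their mean log2 signal was 11.35 and 11.31 before and 11.21 and 11.36 after injury. Of 11 skeletal muscle markers measured, 3 lay below the filter in each uninjured array and 4 in each day 7 array, and the log2 of their summed signal was 9.43 and 9.80 before and 9.24 and 9.25 after injury. The median standard deviation between the 2 arrays was 0.0973 for uninjured nerve and 0.0608 at day 7, on the log2 scale. The 3'/5' index, the mean log2 excess of the 3' over the 5' control probe sets of Actb and Gapdh, was 2.29 and 2.36 before injury and 2.01 and 1.93 at day 7, and the part of this difference in the results was not tested. With the 2 arrays of the highest index, both WldS, left out of the fit, 5823 genes passed between day 7 and uninjured nerve. The segments are bulk tissue, so fewer cells of a type and less RNA per cell cannot be told apart in any value below.

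A large share of the genes differed between the day 7 and the uninjured nerve. The largest rises included genes of cell division, the matrix protein Tnc and the growth factor Btc, and the largest falls included the myelin genes Ncmap and Drp2 and the sterol enzyme Idi1. Of the genes tested, 5244 passed the test (36.1%), with 2854 higher (19.6%) and 2390 lower (16.4%) at day 7. A 2-fold difference was reached by 1513 of them (10.4%), of which 799 were higher (5.49%) and 714 lower (4.91%). For 10477 genes (72%) the 2 day 7 arrays did not overlap with the 2 uninjured ones. Differences of at least 2 on the log2 scale were seen for 200 genes that rose and 163 that fell, and differences of at least 4 for 13 and 12. The median difference over all genes was 0.02.

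Values are log2 signals, given for the 2 arrays of a group in the order of their replicate numbers, and differences are on the log2 scale with the standard error of limma's fit and a p adjusted by the Benjamini-Hochberg method over the 14545 genes. A gene passed at an adjusted p below 0.05. Where a group mean lay below the filter, the difference is a lower bound and is written as "at least".

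Clca3a2, of the Clca family of chloride channel accessory proteins, read 4.80 and 4.61 in the uninjured arrays and 10.33 and 10.25 at day 7, and rose by at least 5.59 ± 0.24 (SE, adjusted p = 5.51e-10). Wif1, a secreted inhibitor of Wnt proteins, read 3.60 and 3.65 and then 8.99 and 9.22, a rise of at least 5.48 ± 0.14 (SE, adjusted p = 1.45e-11). Both were below the filter in both uninjured arrays and well above it in both day 7 arrays. Rrm2, a subunit of the enzyme that makes deoxyribonucleotides, read 6.10 and 5.89 before and 10.90 and 11.08 after injury and rose by 4.99 ± 0.14 (SE, adjusted p = 1.82e-11). Mki67, a marker of dividing cells, went from 6.01 and 6.72 to 11.39 and 11.32 and rose by 4.99 ± 0.17 (SE, adjusted p = 8.83e-11). Tnc, the matrix glycoprotein tenascin C, went from 6.66 and 6.35 to 10.91 and 11.19. Its rise was 4.54 ± 0.21 (SE, adjusted p = 1.78e-09), and the lower day 7 array was more than 4 log2 units above the higher uninjured one. Next came Pbk, a mitotic kinase (4.55), Top2a, the topoisomerase of dividing cells (4.54), and Egr3, a zinc finger transcription factor (4.52). They were followed by Cthrc1, a secreted protein of wounded tissue (4.43), Cep55, which acts in the last step of cell division (at least 4.25), and Gpnmb, a glycoprotein of macrophages and melanosomes (4.19). The list of the 15 largest rises closed with Tyrp1, an enzyme of melanin synthesis (at least 4.13), the transcription factor Sox4 (4.06), Btc, the EGF receptor ligand betacellulin (4.00), and Syt4, a synaptotagmin of membrane traffic (3.97).

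Fam107a, an actin-associated protein, read 11.52 and 11.38 before injury and 4.57 and 5.68 at day 7, and fell by 6.33 ± 0.25 or more (SE, adjusted p = 3.33e-10). Its day 7 arrays lay further apart than those of any other gene in the plot of the largest changes, and still more than 5 log2 units below the uninjured arrays. Ddn, a cytoskeletal protein first described in dendrites and podocytes, went from 11.83 and 11.63 to 6.42 and 6.04 and fell by 5.49 ± 0.18 (SE, adjusted p = 7.46e-11). Kcnk1, a potassium leak channel, went from 10.75 and 10.69 to 5.47 and 5.49, and fell by 5.24 ± 0.21 (SE, adjusted p = 3.19e-10). Ncmap, a membrane protein of peripheral myelin, went from 12.70 and 12.56 to 7.35 and 7.63, and fell by 5.14 ± 0.20 (SE, adjusted p = 2.36e-10). It remained clearly above the filter, whereas Kcnk1 ended close to it. The other large falls were Cnmd, the angiogenesis inhibitor chondromodulin (-4.85 or lower), Adcy1, an adenylate cyclase (-4.83), Fam178b (-4.59), Chdh, a choline-oxidising enzyme (-4.34), and Fgf4, a fibroblast growth factor (-4.26 or lower). Drp2, a dystrophin-related protein of the Schwann cell membrane (-4.18), Prr15 (-4.18 or lower), the amino acid transporter Slc36a2 (-4.12) and the guidance protein Sema5a (-3.93) came next. Idi1, an enzyme of sterol synthesis (-3.92), and Etnppl, which degrades phosphoethanolamine (-3.91), closed the list of falls.

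Some of these genes had further probe sets that did not move like the chosen one. The others of Top2a differed by -0.12 and 0.87, that of Egr3 by 0.18, that of Cep55 by 0.34, that of Fam178b by 0.12 and those of Prr15 by -0.34 and -0.02. Of the other 3 probe sets of Fgf4, the first differed by -4.58, in step with the chosen one, and the rest by 0.07 and -0.38. The 7 others of Sox4 ranged from -0.29 to 2.58.

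**Figure D1:**
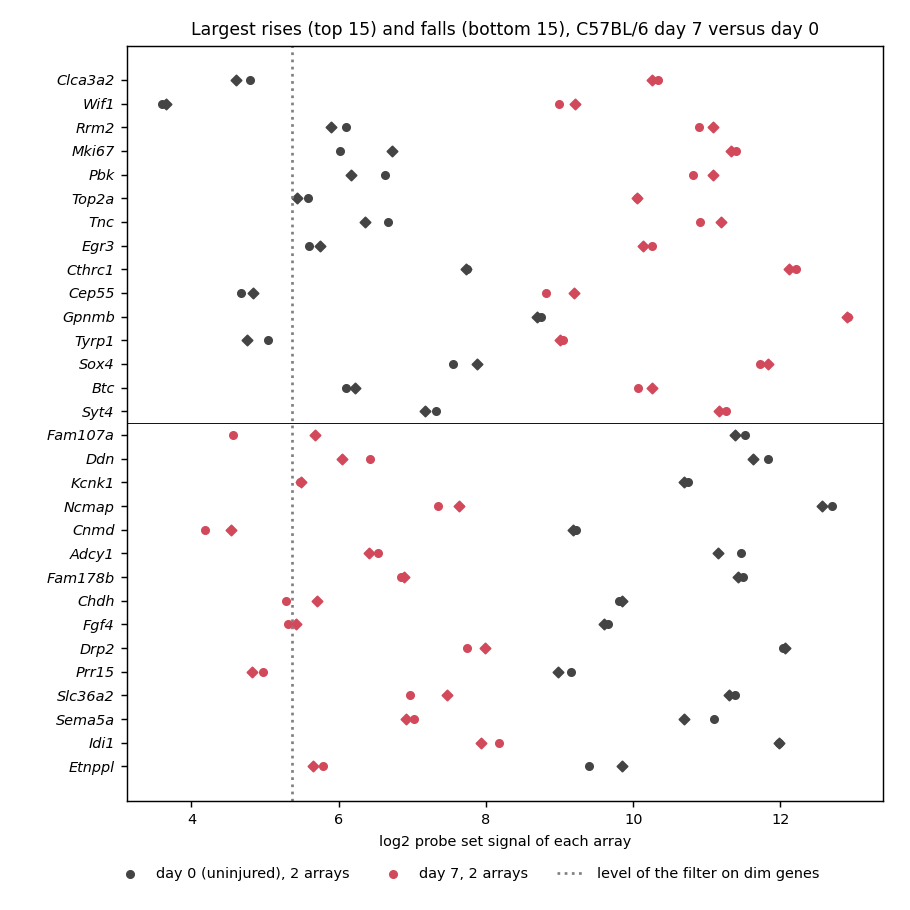
Log2 probe set signal (horizontal axis) of the 15 largest rises and 15 largest falls in C57BL/6 nerve at day 7 against uninjured nerve, 1 point per array (circles replicate 1, diamonds replicate 2). The dotted line is the filter on dim genes, grey points are uninjured and red points day 7 arrays, and groups that do not overlap were a condition of the choice. Clca3a2, at the top, runs from 4.80 and 4.61 to 10.33 and 10.25.

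Gene lists of the cell types and processes of an injured nerve are drawn together in the plot of list members, and are described by their counts, which are read against the 19.6% of all genes that were higher and the 16.4% that were lower at day 7. The lists of cell cycle, DNA replication, macrophage and lysosome genes lay almost wholly on the side of rises. The list called compact myelin and those of sterol synthesis, adipocyte and perineurial genes lay almost wholly on the side of falls.

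**Figure D2:**
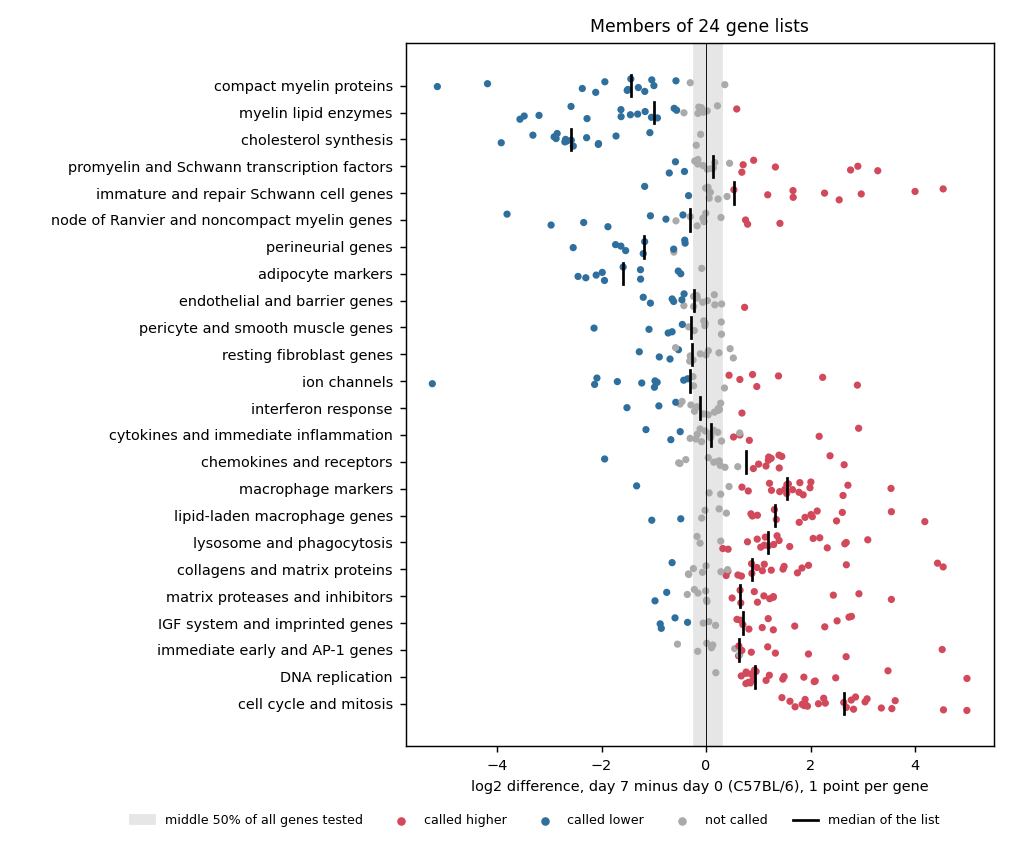
Log2 difference between day 7 and day 0 in C57BL/6 nerve for the tested members of 24 gene lists, 1 point per gene, red where the gene was called higher, blue where it was called lower and grey where it was not called. The black bar is the median of the list, the grey band the middle 50% of all genes tested, and the medians run from -2.58 for cholesterol synthesis to 2.64 for cell cycle and mitosis.

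Myelin genes fell, and they did so to very different depths. Their list is called compact myelin here, but it also holds proteins outside compact myelin, such as Drp2, Mag and Cnp. Of 15 tested members of the list 13 were lower at day 7, against 16.4% of all genes, with a median difference of -1.44. Mbp, the myelin basic protein that holds the inner faces of the membrane together, read 14.23 and 14.34 before and 12.19 and 12.15 after injury, and fell by 2.11 ± 0.11 (SE, adjusted p = 3.85e-09). Pmp22, an integral membrane protein of peripheral myelin, read 14.15 and 14.07 before injury and 12.97 and 12.91 at day 7, and fell by 1.17 ± 0.11 (SE, adjusted p = 1.04e-06). Cnp, an enzyme of the cytoplasmic channels of myelin, fell by 0.58 ± 0.12 (SE, adjusted p = 0.00156). Ncmap and Drp2, at the other end of the list, had lost over 4 log2 units. Between these extremes fell the claudin Cldn19 of myelin tight junctions (-2.37), Cmtm5 (-1.94), the fatty acid binding protein Pmp2 (-1.51), the lipid raft protein Mal (-1.49), the chaperone Cryab (-1.44), the adhesion protein Mag of the inner myelin face (-1.30), and the tetraspanin Cd9 (-1.04). Gjb1, the gap junction protein connexin 32, fell from 8.53 and 8.74 to 7.54 and 7.74 (adjusted p = 0.00101). The scaffold protein Mpp6 (-0.30, adjusted p = 0.0525) and the connexin Gjc3 (0.36, adjusted p = 0.293) did not pass. The summed signal of the Schwann cell markers, which include Mbp, moved down with this list, and its part in the falls was not tested.

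Enzymes that make the lipids of myelin fell in a selective pattern. Of 22 tested, 14 fell and 1 rose, with a median of -0.99. Fa2h, which adds the hydroxyl group to the fatty acids of myelin galactolipids, read 12.38 and 12.21 before injury and 8.76 and 8.70 at day 7, and fell by 3.56 ± 0.11 (SE, adjusted p = 5.07e-11). Elovl6 and Elovl7, which lengthen fatty acids, fell, with differences of -3.48 ± 0.14 (SE, adjusted p = 4.37e-10) and -3.20 ± 0.20 (SE, adjusted p = 2.74e-08). Ugt8a, which makes galactosylceramide, went from 12.56 and 12.46 to 10.11 and 10.35, and fell by 2.28 ± 0.18 (SE, adjusted p = 2.37e-07). Plaat3, a phospholipase (-2.58), and Me1, which supplies NADPH for lipid synthesis (-1.63), fell as well. The desaturases Scd1 and Scd2, picked out after their values were seen, did not pass. Scd1 read 13.45 and 13.43 before injury and 12.68 and 13.36 at day 7, a difference of -0.42 (adjusted p = 0.222), and Scd2 differed by -0.05 (adjusted p = 0.83). The rise in the list was Sptlc1, a subunit of the first enzyme of sphingolipid synthesis (0.59 ± 0.21 SE, adjusted p = 0.038), whose call was lost without any of the 4 arrays (adjusted p between 0.0691 and 0.2).

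The pathway to cholesterol, a major lipid of myelin, was lowered at nearly every step. Of 17 enzymes tested, 15 fell, with a median of -2.58. Hmgcs1, which makes the precursor of mevalonate, went from 13.88 and 13.97 to 11.50 and 11.27, and fell by 2.54 ± 0.15 (SE, adjusted p = 1.64e-08). Idi1, which isomerises the isoprenoid unit, read 11.98 and 11.98 in uninjured nerve and 8.18 and 7.93 at day 7, and fell by 3.92 ± 0.17 (SE, adjusted p = 8.98e-10). Hsd17b7, a late enzyme that reduces a sterol ketone, went from 11.06 and 11.02 to 7.74 and 7.71, and fell by 3.31 ± 0.17 (SE, adjusted p = 3.8e-09). In all 3 enzymes the uninjured arrays lay more than 2 log2 units above the day 7 arrays. Squalene epoxidase, Sqle, a rate-limiting step, fell by 2.58 ± 0.16 (SE, adjusted p = 1.98e-08), and lanosterol synthase, Lss, fell by 2.69 ± 0.18 (SE, adjusted p = 4.3e-08). The enzymes of the mevalonate branch, Pmvk (-2.06) and Mvd (-2.06), fell, as did those that join isoprenoids to squalene, Fdps (-2.70) and Fdft1 (-2.67). Among the enzymes that trim lanosterol, the falls were those of Cyp51 (-2.87), Tm7sf2 (-2.29), Msmo1 (-2.91), Nsdhl (-1.72), Sc5d (-2.85) and Dhcr7, which acts last (-1.08). Mevalonate kinase, Mvk, and the sterol isomerase Ebp did not pass. Mvk read 7.56 and 7.53 before injury and 7.38 and 7.34 at day 7, a difference of -0.19 (adjusted p = 0.286), and Ebp read 9.32 and 9.59 before injury and 9.31 and 9.39 at day 7, a difference of -0.10 (adjusted p = 0.668). Both lay above the filter.

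Because so many of these enzymes moved together, the 250 bases upstream of their start sites in RefSeq's mouse assembly GRCm38.p6 were searched on both strands. Promoters were found for 14 of the 17 enzymes, with 17 start sites in all. CCAAT, the box bound by NF-Y, which works beside the sterol regulatory proteins on such promoters, was in 14 of the 17 windows (82.4%) and in at least 1 window of each of the 14 enzymes, against 33.8% of 32851 promoters of the mouse. The sterol regulatory element core TCACNCCAC was in 1 of the 17 (5.88%), that of Hmgcs1, against 1.05% of all promoters. The boxes did not separate enzymes that fell from those that did not, since the promoters of Mvk and Ebp held them too, and a match describes the letters and not binding. The enzymes with the deepest falls (Idi1 and Hsd17b7), the enzyme with the element (Hmgcs1) and an enzyme with no called change (Mvk) are printed 5′ to 3′ in the sense of the gene, in lower case, with the boxes (CCAAT, or ATTGG where it lies on the other strand) and the element in capitals. They lie at chr13:8885356-8885605 on the plus strand for Idi1, chr1:169969206-169969455 on the minus strand for Hsd17b7, chr13:119690101-119690350 on the plus strand for Hmgcs1 and chr5:114444019-114444268 on the plus strand for Mvk.
Idi1: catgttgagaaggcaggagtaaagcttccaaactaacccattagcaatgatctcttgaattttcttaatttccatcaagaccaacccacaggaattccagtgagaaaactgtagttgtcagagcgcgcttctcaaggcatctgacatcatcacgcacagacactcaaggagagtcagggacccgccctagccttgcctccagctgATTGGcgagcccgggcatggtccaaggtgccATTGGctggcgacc
Hsd17b7: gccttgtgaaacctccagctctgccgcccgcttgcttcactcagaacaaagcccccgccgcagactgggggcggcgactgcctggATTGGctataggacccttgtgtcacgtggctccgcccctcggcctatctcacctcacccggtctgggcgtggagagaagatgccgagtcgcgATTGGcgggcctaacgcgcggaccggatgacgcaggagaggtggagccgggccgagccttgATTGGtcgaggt
Hmgcs1: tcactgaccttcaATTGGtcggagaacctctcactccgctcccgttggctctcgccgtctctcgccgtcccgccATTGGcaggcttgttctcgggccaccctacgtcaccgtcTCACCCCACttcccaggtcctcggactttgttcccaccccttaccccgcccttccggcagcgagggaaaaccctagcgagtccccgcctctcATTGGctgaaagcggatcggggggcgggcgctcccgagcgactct
Mvk: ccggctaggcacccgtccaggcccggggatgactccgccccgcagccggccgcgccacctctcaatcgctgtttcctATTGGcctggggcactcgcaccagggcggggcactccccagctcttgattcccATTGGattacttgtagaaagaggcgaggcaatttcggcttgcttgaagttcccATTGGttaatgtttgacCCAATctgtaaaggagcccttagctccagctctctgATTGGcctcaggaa

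Genes that sense, import or export cholesterol did not follow the enzymes as a block. Of 19 tested, 6 rose and 4 fell, with a median of 0.02. With only the groups compared in the fit, 7 fell. Insig1, which retains the sterol sensor in the endoplasmic reticulum and is itself a sterol-regulated gene, read 9.31 and 9.70 before and 6.46 and 6.53 after injury, and fell by 3.01 ± 0.20 (SE, adjusted p = 4.15e-08). Stard4, a carrier of cholesterol inside cells, fell by 1.96 ± 0.17 (SE, adjusted p = 5.37e-07). Scap, the escort of the sterol regulatory proteins, fell by 0.64, and the lipoprotein receptor Vldlr fell by 0.77. The transcription factors of the pathway did not pass: Srebf1 differed by -0.30 (adjusted p = 0.124) and Srebf2 by -0.33 (adjusted p = 0.205). On the export side, Abca1, the transporter that loads cholesterol onto apolipoproteins, went from 10.45 and 10.61 to 13.16 and 13.12, a rise of 2.61 ± 0.13 (SE, adjusted p = 2.78e-09). Apoe, which carries lipids between cells of the nerve, went from 12.08 and 12.20 to 14.04 and 14.04, a rise of 1.89 ± 0.19 (SE, adjusted p = 2.64e-06). Abcg1, a further exporter (0.83), and Mylip, which degrades lipoprotein receptors (1.04), also rose. The groups did not overlap in these 4 genes, as in 72% of all genes tested.

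**Figure D3:**
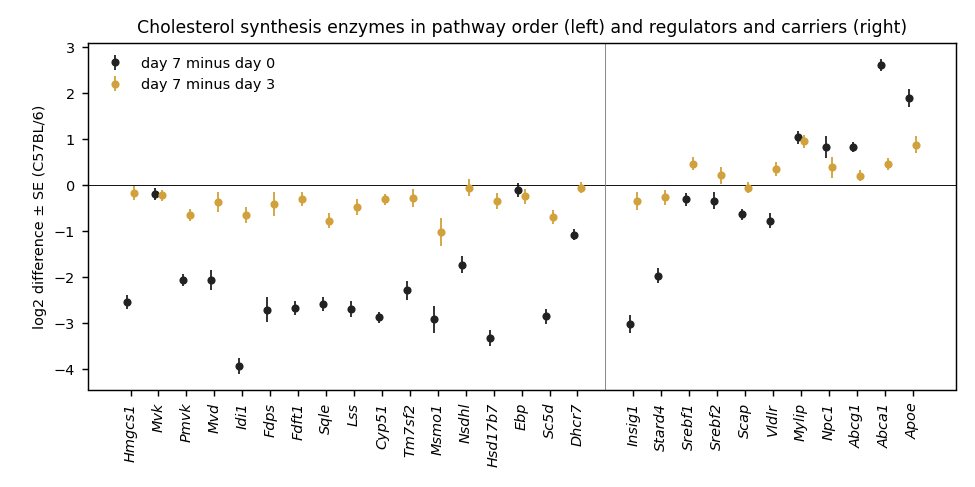
Log2 difference with its standard error in C57BL/6 nerve for the enzymes of cholesterol synthesis in the order of the pathway (left) and for regulators and carriers of cholesterol (right). Black points are day 7 minus day 0, with 15 of the 17 enzymes called lower and Mvk and Ebp near 0, and yellow points are day 7 minus day 3.

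Transcription factors of the Schwann cell moved in both directions. Of 19 tested, 7 rose and 3 fell, and 1 fell without the first uninjured array. Sox2, a factor of immature Schwann cells, read 7.45 and 7.42 in uninjured nerve and 10.65 and 10.80 at day 7, a rise of 3.29 ± 0.12 (SE, adjusted p = 2.36e-10). Id2, which antagonises basic helix-loop-helix factors, rose by 2.91 ± 0.21 (SE, adjusted p = 1.08e-07). Pou3f1, also called Oct6 or SCIP and the factor of the promyelinating stage, went from 8.79 and 8.66 to 11.58 and 11.40, a rise of 2.77 ± 0.18 (SE, adjusted p = 4.15e-08). Jun, which drives the repair state, went from 9.51 and 9.33 to 10.73 and 10.76, a rise of 1.33 ± 0.12 (SE, adjusted p = 1.44e-06). Notch1, a receptor that holds back myelination, rose by 0.91, and Tead1, a partner of the Hippo pathway, by 0.71. Egr2, also called Krox20 and the master factor of myelination, read 12.37 and 11.96 before injury and 11.47 and 11.46 at day 7. It fell by 0.70 ± 0.17 (SE, adjusted p = 0.00476), a call lost without the first uninjured array (adjusted p = 0.0772). Sox10 fell by 0.41 ± 0.13 (SE, adjusted p = 0.0262), a call lost without any of the 4 arrays (adjusted p between 0.0622 and 0.139), and the Egr corepressor Nab1 fell by 0.59. Yap1, Zeb2, Yy1, Hdac3, Nab2, Nfatc4, Pax3, Pou3f2 and Rora did not pass.

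Genes of immature and repair Schwann cells were mostly higher. Of 17 tested, 9 rose and 2 fell, with a median of 0.53. Btc, a ligand of the EGF receptor family, read 6.10 and 6.22 before injury and 10.06 and 10.25 at day 7, a rise of 4.00 ± 0.20 (SE, adjusted p = 3.57e-09). Shh, the ligand sonic hedgehog, read 8.68 and 9.03 before injury and 11.81 and 11.84 at day 7, a rise of 2.97 ± 0.16 (SE, adjusted p = 8.22e-09), although its other probe set differed by 0.01. Ngfr, the p75 neurotrophin receptor, read 8.62 and 8.80 before injury and 10.99 and 11.53 at day 7, a rise of 2.55 ± 0.27 (SE, adjusted p = 4.65e-06). These 3 genes differed by more than 2 log2 units in every pair of a day 7 and an uninjured array. Gdnf, a survival factor of motor neurons, rose by at least 2.27 ± 0.17 (SE, adjusted p = 1.24e-07), Gap43, a growth-associated membrane protein, by 1.67 ± 0.25 (SE, adjusted p = 0.000128), and Clcf1, a cytokine of the ciliary neurotrophic factor family, by 1.66 ± 0.16 (SE, adjusted p = 1.69e-06). The stress-induced factor Atf3 rose by 1.18 and the cytokine Lif by 0.53. Mpzl2, an adhesion protein, and Cdh2, N-cadherin, fell (-1.18 and -0.34), the latter lost without any of the 4 arrays (adjusted p between 0.0964 and 0.172). Other genes that mark immature or injured Schwann cells were not called: Ncam1 differed by 0.23, L1cam by 0.06, Gfap by 0.40, Nes by -0.01, Fabp7 by 0.04 and Bdnf by 0.08. Artn and Nrg1 were below the filter.

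Receptors for these factors showed a mixed picture. In the list of neurotrophic ligands and receptors 4 of 18 rose (22.2%) and 5 fell (27.8%), against 19.6% and 16.4% of all genes. Gfra1, the coreceptor of Gdnf, rose by 0.88 ± 0.19 (SE, adjusted p = 0.00208), and the neurotrophin receptors Ntrk3 (-0.85) and Ntrk2 (-0.45), the cytokine receptor Lifr (-0.72) and the neurturin coreceptor Gfra2 (-0.64) fell. In the neuregulin and EGF family 4 of 11 rose and 4 fell. Erbb3, the neuregulin receptor of Schwann cells, went from 10.80 and 10.74 to 11.99 and 12.07, a rise of 1.26 ± 0.19 (SE, adjusted p = 0.000134). Adam17, which sheds growth factors of the family, rose by 0.94. Among ligands of the EGF receptor, Btc rose and others fell: Tgfa read 9.39 and 9.57 before and 6.81 and 6.54 after injury and fell by 2.80 ± 0.18 (SE, adjusted p = 4.13e-08), and Hbegf fell by 1.31 ± 0.18 (SE, adjusted p = 7.29e-05). The call of Ntrk2 was lost without the first day 7 array (adjusted p = 0.0603), that of Gfra2 without the second array of either group (0.163 and 0.154), and that of Ntrk3 without the first uninjured or either day 7 array (0.154, 0.077 and 0.102).

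Genes of cell division were higher at day 7. All 23 tested genes of the cell cycle and mitosis list rose (2.64 in the median), as did 21 of 22 genes of DNA replication (0.94 in the median). Cenpf, a kinetochore protein, went from 6.70 and 6.38 to 10.17 and 10.15, a rise of 3.62 ± 0.13 (SE, adjusted p = 1.73e-10). Ccna2, cyclin A, went from 6.27 and 6.32 to 9.83 and 9.87, a rise of 3.56 ± 0.14 (SE, adjusted p = 2.74e-10). Cdk1, the kinase that drives entry into mitosis, went from 6.12 and 6.08 to 9.40 and 9.51, a rise of 3.35 ± 0.19 (SE, adjusted p = 1.23e-08). Every day 7 array lay more than 3 log2 units above every uninjured one in these 3 genes. Prc1 and Birc5, which act at the spindle midzone, rose by 3.08 and at least 3.04. In the replication list the rise was largest for Rrm2 and for Uhrf1, which copies DNA methylation (at least 3.48), and Tk1 (2.48), Mcm6 (2.09) and Mcm5 (2.07) followed. Fen1, which trims replication primers, was the exception in that list, with a difference of 0.19 (adjusted p = 0.205).

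Among regulators of the cycle, Gadd45a, which responds to DNA damage and growth arrest, rose by 3.91 ± 0.41 (SE, adjusted p = 4.74e-06), cyclin E2, Ccne2, by at least 3.32 ± 0.17 (SE, adjusted p = 3.15e-09), and cyclin D1, Ccnd1, by 2.71 ± 0.16 (SE, adjusted p = 1.99e-08). The inhibitors of cyclin-dependent kinases Cdkn1a (-1.24), Cdkn1c (-0.59) and Cdkn1b (-0.55) fell. Cdkn1a read 11.82 and 11.97 in uninjured nerve and 10.67 and 10.64 at day 7. In total 14 of 23 regulators rose and 3 fell, and the call of Cdkn1b was lost without the second uninjured array (adjusted p = 0.0751).

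The upstream windows of the cell cycle and mitosis genes were searched in the same way, for CCAAT and for TTTGAA, the cell cycle homology region at which repressor complexes of resting cells bind. There were 21 start sites for 19 of the genes. CCAAT was in 18 of them (85.7%) and TTTGAA in 10 (47.6%), against 33.8% and 16% of all promoters. The E2F motif TTTNNCGC was in 6 of 23 start sites of the replication list (26.1%), against 4.28% of all. In the cell cycle and mitosis list it was in 1 of 21 (4.76%). TTTGAA was in 3 of the 23 replication start sites (13%), and CCAAT in 14 (60.9%). Here too a match describes the letters and not binding. Printed are the promoters of Mki67 and Top2a, which had the largest rises of the list, and of Cdk1, with both motifs in capitals on either strand (ATTGG and TTCAAA on the other one). They lie at chr7:135716380-135716629 on the minus strand for Mki67, chr11:99024190-99024439 on the minus strand for Top2a and chr10:69352913-69353162 on the minus strand for Cdk1.
Mki67: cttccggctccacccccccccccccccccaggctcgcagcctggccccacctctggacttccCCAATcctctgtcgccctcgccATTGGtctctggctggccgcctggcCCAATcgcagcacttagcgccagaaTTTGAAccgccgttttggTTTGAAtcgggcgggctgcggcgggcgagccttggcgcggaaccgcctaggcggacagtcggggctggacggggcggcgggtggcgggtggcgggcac
Top2a: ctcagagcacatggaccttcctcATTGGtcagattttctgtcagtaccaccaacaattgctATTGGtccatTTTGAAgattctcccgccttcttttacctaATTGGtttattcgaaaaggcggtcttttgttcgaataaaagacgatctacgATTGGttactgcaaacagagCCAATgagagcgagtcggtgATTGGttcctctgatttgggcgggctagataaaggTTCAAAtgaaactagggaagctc
Cdk1: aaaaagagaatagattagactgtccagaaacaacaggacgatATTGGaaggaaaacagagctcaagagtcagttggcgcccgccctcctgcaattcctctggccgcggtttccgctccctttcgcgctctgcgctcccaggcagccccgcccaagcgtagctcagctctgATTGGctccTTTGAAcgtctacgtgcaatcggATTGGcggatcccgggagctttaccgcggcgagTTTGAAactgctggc

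Macrophage genes were higher at day 7, with few exceptions. Of 22 tested markers 18 rose and 1 fell, with a median of 1.54, and the log2 of their summed signal went from 14.58 and 14.76 to 16.14 and 16.11. Mpeg1, a pore-forming protein of phagocytes, read 9.19 and 9.61 before injury and 12.94 and 12.94 at day 7, a rise of 3.54 ± 0.14 (SE, adjusted p = 2.36e-10). Clec7a, the beta-glucan receptor, rose by 2.71 ± 0.17 (SE, adjusted p = 2.15e-08). Cd68, a lysosomal membrane protein, read 8.81 and 9.13 before injury and 11.78 and 11.40 at day 7, a rise of 2.62 ± 0.24 (SE, adjusted p = 1.3e-06). Ptprc, the leukocyte antigen CD45, rose by 2.01, Lyz2, lysozyme, by 1.99, and Adgre1, the F4/80 antigen, by 1.86. Cd163, the haemoglobin scavenger receptor of resident macrophages, went the other way, from 9.38 and 9.62 to 8.22 and 8.12, and fell by 1.33 ± 0.19 (SE, adjusted p = 8.25e-05). The receptor Csf1r, picked out after its values were seen, read 12.75 and 12.71 before injury and 13.09 and 12.93 at day 7 and did not pass (0.28, adjusted p = 0.104).

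Genes of lipid-filled phagocytes and of lysosomes rose in numbers close to those of the macrophage markers, with 14 of 20 and 18 of 21 higher. Gpnmb read 8.75 and 8.70 before injury and 12.92 and 12.90 at day 7, a rise of 4.19 ± 0.15 (SE, adjusted p = 1.76e-10). Mmp12, macrophage elastase, read 5.32 and 5.61 before injury and 8.81 and 9.22 at day 7, a rise of 3.55 ± 0.42 (SE, adjusted p = 1.57e-05). Atp6v0d2, a subunit of the lysosomal proton pump, read 7.79 and 7.01 before injury and 10.40 and 10.59 at day 7, a rise of 3.10 ± 0.19 (SE, adjusted p = 2.13e-08). In all 3 the groups lay more than 2 log2 units apart. Lgmn, the lysosomal protease legumain, rose by 2.68, Gusb, beta-glucuronidase, by 2.65, the lipid droplet protein Plin2 by 2.03, the protease Ctsd by 2.01 and the lipid receptor Trem2 by 1.78. The summed signal of the macrophage markers moved up with both lists, and its part in their rise was not tested. Ncf1 and Cybb, subunits of the phagocyte oxidase, rose by 2.18 and 2.05. In the lipid list Cd9 and Fabp4, which myelinating Schwann cells and fat cells also express, were the 2 that fell (-1.04 and -0.48), and the call of Fabp4 was lost without the first day 7 array (adjusted p = 0.0504).

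Chemokine and complement genes were often higher at day 7, and the shares of cytokine genes called higher and lower lay near those of all genes. Among chemokines and their receptors 11 of 22 rose and 1 fell, led by Ccl8, a monocyte chemokine (2.64 ± 0.31 SE, adjusted p = 1.42e-05), and Cxcr4, the receptor of Cxcl12 (at least 2.37 ± 0.23 SE, adjusted p = 2.22e-06). Ccl2, the main attractant of monocytes, read 7.46 and 7.48 before injury and 8.50 and 8.25 at day 7, a rise of 0.91 ± 0.18 (SE, adjusted p = 0.00153). Cxcl13, the B cell chemokine, read 8.72 and 9.20 before injury and 6.99 and 7.05 at day 7, and fell by 1.94 ± 0.25 (SE, adjusted p = 3.52e-05). Of the cytokine list 5 of 21 rose and 3 fell, with the adhesion receptor Cd44 (2.92) and the tumour necrosis factor receptor Tnfrsf1b (2.16) at the top. The cytokine genes Il1b and Tnf, picked out after their values were seen, differed by -0.09 (adjusted p = 0.708) and 0.09 (adjusted p = 0.635). Interferon-induced genes were called higher in 1 case and lower in 3 of 16, and Ifit1, which binds viral RNA, fell by 1.51 ± 0.27 (SE, adjusted p = 0.000513). Without the second uninjured or the first day 7 array 1 interferon-induced gene was lower. Complement was higher in 9 and lower in 3 of 15, with the receptor C3ar1 (2.73) and the integrin chain Itgb2 (2.24) in front. Neutrophil markers rose in 2 of 10, a share near that of all genes, and markers of T and B cells in 2 of 11.

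Genes tied to alternative activation were split, with 8 higher and 5 lower of 19. Tgfb1, the cytokine of tissue repair, rose by 2.16 ± 0.25 (SE, adjusted p = 1.13e-05), and Axl, a receptor for dying cells, by 1.46 ± 0.33 (SE, adjusted p = 0.00346). Retnla, a secreted product of alternatively activated macrophages, went from 13.07 and 13.13 to 11.81 and 11.80, and fell by 1.29 ± 0.11 (SE, adjusted p = 6.79e-07), and the lectin Mgl2 fell by 1.87 ± 0.15 (SE, adjusted p = 3.25e-07). Arg1, arginase, read 4.95 and 5.13 before injury and 6.53 and 6.42 at day 7, a rise of at least 1.44 ± 0.39 (SE, adjusted p = 0.0109) that was lost without the first array of either group (adjusted p = 0.0766 and 0.0633). Without the first day 7 array the list held 4 higher members.

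Matrix genes were mostly higher. Of 26 collagens and matrix proteins 18 rose and 1 fell, with a median of 0.87. Beside Tnc and Cthrc1, Thbs2 and Thbs1, the thrombospondins, rose by 2.68 ± 0.17 (SE, adjusted p = 2.83e-08) and 1.96 ± 0.47 (SE, adjusted p = 0.00442). Col18a1 and Col5a2, of basement membrane and fibrillar collagen, rose by 1.84 and 1.75. The fall was that of the collagen crosslinking enzyme Lox (-0.65 ± 0.23 SE, adjusted p = 0.0432), a call lost without any of the 4 arrays (adjusted p between 0.0545 and 0.269). Among proteases and their inhibitors 12 of 20 rose. The inhibitor Timp1 read 7.61 and 7.70 before injury and 10.66 and 10.51 at day 7, a rise of 2.93 ± 0.15 (SE, adjusted p = 3.57e-09). Adamts4, an aggrecanase, rose by 2.44 ± 0.29 (SE, adjusted p = 1.52e-05), and Mmp9, gelatinase B, fell by 0.98 ± 0.14 (SE, adjusted p = 0.000103). Integrin subunits were split: Itgb1 (1.81), Itgb3 (1.62) and Itgb8 (1.53) rose, and Itgb4, the laminin-binding subunit of the Schwann cell's outer membrane and of the perineurium, fell by 1.54 ± 0.26 (SE, adjusted p = 0.000399).

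Genes of the perineurium, the cellular sleeve that seals nerve fascicles, fell together. Of 10 tested, 9 fell and 0 rose, with a median of -1.19. Lypd2, of the Ly6 family, read 10.84 and 11.04 before and 8.34 and 8.45 after injury, and fell by 2.54 ± 0.18 (SE, adjusted p = 1.2e-07). Krt19, a keratin, read 9.15 and 9.12 before injury and 7.46 and 7.35 at day 7, and fell by 1.73 ± 0.20 (SE, adjusted p = 1.26e-05). Perp, a desmosome protein, read 10.40 and 10.42 before injury and 8.73 and 8.84 at day 7, and fell by 1.63 ± 0.12 (SE, adjusted p = 1.82e-07). Slc2a1, the glucose transporter of the blood-nerve barrier, fell by 1.20 ± 0.12 (SE, adjusted p = 3.45e-06), and Cldn1, the claudin of perineurial tight junctions, differed by -0.62 and did not pass (adjusted p = 0.0874; picked out after its values were seen). Of endothelial and barrier genes 6 of 17 fell and 1 rose, with 3 lower members left without the first array of either group. Slc2a1 and the junction protein Tjp1 belong to this list and to the perineurial one, so their falls are counted in both. Cldn5, the claudin of endothelial tight junctions, fell by 1.06 ± 0.17 (SE, adjusted p = 0.000239). In the list of pericytes and smooth muscle, Tagln and Acta2, contractile proteins, fell, with differences of -2.14 ± 0.24 (SE, adjusted p = 8.78e-06) and -1.09 ± 0.12 (SE, adjusted p = 7.53e-06). Of resting fibroblast genes 4 of 14 fell, against 16.4% of all genes.

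Adipocyte markers fell as well, in 10 of 11 cases, with a median of -1.59. Cidec, a protein of lipid droplets, read 9.31 and 9.18 before injury and 6.24 and 7.35 at day 7, and fell by 2.45 ± 0.38 (SE, adjusted p = 0.000178), and Adipoq, the hormone adiponectin, read 12.17 and 12.14 before injury and 9.55 and 10.87 at day 7, and fell by 1.94 ± 0.36 (SE, adjusted p = 0.000655). The log2 of the summed signal of the list was 13.97 and 14.00 in the uninjured arrays and 12.49 and 13.02 at day 7, and the 2 day 7 pools differed more than the 2 uninjured ones. These markers moved down with the lipid and sterol enzymes, and their part in those falls was not tested.

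Genes of the node of Ranvier and of the uncompacted myelin were lower in 7 and higher in 3 of 17 cases. Cdh1, E-cadherin of the myelin's own junctions, read 10.53 and 10.38 before injury and 6.72 and 6.57 at day 7, and fell by 3.81 ± 0.12 (SE, adjusted p = 7.46e-11). Nfasc, the neurofascin of the paranode, read 10.67 and 10.36 before injury and 7.47 and 7.63 at day 7, and fell by 2.97 ± 0.13 (SE, adjusted p = 1.07e-09), and Cadm3, an adhesion protein of the internode, fell by 2.34 ± 0.17 (SE, adjusted p = 1.48e-07). Cadm1, of the same family, rose by 1.41 ± 0.17 (SE, adjusted p = 2.14e-05). Ion channels were divided too: 10 of 20 fell and 7 rose. Kcnj10, an inward rectifier of glial cells, read 6.02 and 5.64 before injury and 8.76 and 8.69 at day 7, a rise of 2.90 ± 0.20 (SE, adjusted p = 5.93e-08), and the cation channel Trpm3 rose by 2.23 ± 0.27 (SE, adjusted p = 1.58e-05). The potassium channels Kcnk1 (-5.24) and Kcnj13 (-2.13) and the chloride channel Clcn2 (-2.09) fell.

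Guidance molecules were higher in 10 and lower in 4 of 25 cases, the latter near the 16.4% of all genes. Epha5, an ephrin receptor, read 6.87 and 6.50 before injury and 10.03 and 9.73 at day 7, a rise of 3.19 ± 0.15 (SE, adjusted p = 1.95e-09). Sema4f and Sema4d, of the semaphorin family, rose by 2.47 ± 0.30 (SE, adjusted p = 2e-05) and 2.09 ± 0.18 (SE, adjusted p = 8.12e-07), and Sema5a fell by 3.93 ± 0.20 (SE, adjusted p = 3.85e-09). Genes of the neuron and axon list were lower in 5 and higher in 1 of 11 cases, and the cells that held these transcripts were not tested. The neurofilament Nefl went from 7.68 and 8.03 to 4.67 and 4.67, and fell by 3.18 ± 0.20 or more (SE, adjusted p = 2.77e-08). The synuclein Sncg fell by 3.52 ± 0.24 (SE, adjusted p = 6.03e-08). Among hedgehog, Notch and Wnt genes, 5 of 23 rose (21.7%) and 6 fell (26.1%), against 19.6% and 16.4% of all genes. The hedgehog ligands moved in opposite ways: Dhh, the ligand of mature Schwann cells, fell by 0.72 ± 0.16 (SE, adjusted p = 0.00251) while Shh rose. Smo and Gli1, which carry the hedgehog signal, fell (-0.64 and -0.67). The secreted Wnt antagonist Wif1 rose and Sfrp5 fell by 1.58 ± 0.17 (SE, adjusted p = 7.07e-06). The call of Gli1 was lost without the second day 7 array (adjusted p = 0.0503), and without the first day 7 array 3 neuronal genes were lower.

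Growth factors of the insulin-like family and imprinted genes, which are usually active in the fetus, were higher in 12 and lower in 4 of 19 cases, or lower in 2 without the second uninjured array. Mest read 8.32 and 8.23 before injury and 11.16 and 10.95 at day 7, a rise of 2.78 ± 0.20 (SE, adjusted p = 1.25e-07). Hmga2, a chromatin protein of embryonic cells, read 7.04 and 6.95 before injury and 9.73 and 9.73 at day 7, a rise of 2.74 ± 0.12 (SE, adjusted p = 7.95e-10). Dlk1, a Notch-related membrane protein, rose by 2.51 ± 0.20 (SE, adjusted p = 3.22e-07), although its other probe set differed by -0.15. Igf1 rose by 1.29 and its binding protein Igfbp2 by 2.27. Of immediate early genes 9 of 16 rose, with Fos (2.68) and Fosl2 (1.96) behind Egr3. Tyrp1, named above, was the 1 gene called higher of 8 tested genes of pigment cells. Other melanin genes, picked out after their values were seen, did not pass and differed, Tyr by -0.23, Dct by -0.23 and Pmel by 0.08, with adjusted p of 0.17, 0.272 and 0.631. The other 2 probe sets of Tyrp1 differed by 2.00 and 2.28.

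Day 7 was then placed between the earlier and the later injured nerves, to see which of these genes were still moving. The comparisons share the day 7 arrays, so their values are given side by side and are not independent. From day 3 to day 7, 2950 genes (20.3%) differed, 1397 higher (9.6%) and 1553 lower (10.7%), and 529 of them (3.64%) by at least 2-fold. The calls rested on the pools more heavily than those against uninjured nerve: 1123 genes passed without the first day 3 array, 1401 without the first day 7 array and 1230 without the second.

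Some myelin genes were higher at day 7 than at day 3 and others were lower. Of the compact myelin list 7 members were higher at day 7 than at day 3 and 5 lower. Cmtm5 went from 5.91 and 5.90 at day 3 to 8.12 and 8.22 at day 7, a rise of 2.27 ± 0.21 (SE, adjusted p = 7.59e-06), and Mag from 7.88 and 7.79 to 8.86 and 8.93, a rise of 1.06 ± 0.19 (SE, adjusted p = 0.00171). Ugt8a, of galactolipid synthesis, went from 8.10 and 8.44 to 10.11 and 10.35, a rise of 1.96 ± 0.18 (SE, adjusted p = 5.8e-06), and Egr2 rose by 0.89 ± 0.17 (SE, adjusted p = 0.00237). Drp2 moved the other way, from 9.32 and 9.13 to 7.74 and 7.99, and fell by 1.36 ± 0.13 (SE, adjusted p = 8.84e-06), and Cdh1 and Nfasc fell, with differences of -1.60 ± 0.12 (SE, adjusted p = 1.71e-06) and -1.70 ± 0.13 (SE, adjusted p = 1.75e-06). Gjb1, whose day 3 arrays of 10.58 and 10.82 lay above its uninjured ones, fell by 3.06 ± 0.19 (SE, adjusted p = 2.83e-07) to day 7. In the sterol pathway 5 of 17 were lower, among them Pmvk (-0.64), Sqle (-0.77) and Idi1 (-0.64). Of the myelin lipid enzymes 6 were higher and 3 lower than at day 3. Without single arrays the sterol count lay between 1 and 3, at 1 without the second day 7 array, and 1 lipid enzyme was lower without the first day 3 or the second day 7 array. The call of Sqle was lost without the second day 7 array (adjusted p = 0.0526), and that of Idi1 without either day 3 array or the second day 7 array (0.0837, 0.0752 and 0.166).

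The largest falls from day 3 to day 7 included genes of macrophages and of the acute phase. Arg1 went from 10.78 and 11.54 at day 3 to 6.53 and 6.42 at day 7, and fell by 4.68 ± 0.39 (SE, adjusted p = 3.29e-06), and Chil3, a chitinase-like protein of macrophages, from 9.55 and 9.49 to 5.62 and 5.45, and fell by 3.98 ± 0.20 (SE, adjusted p = 4.03e-08). Saa3, an acute phase protein, fell by 3.21 ± 0.36 (SE, adjusted p = 3.94e-05), and Prg4, lubricin, fell by 3.10 ± 0.22 (SE, adjusted p = 5.83e-07). The Schlafen genes Slfn4 and Slfn1, of myeloid and lymphoid cells, fell (-3.53 and -2.73), and so did Cgref1, a growth regulator (-3.28). The interferon list was lower in 11 of 16 cases and the chemokine list in 12 of 22, against 10.7% of all genes, and Ccl2 fell by 2.23. Macrophage markers were lower in 9 and higher in 2 of 22 cases, or lower in 5 without the first day 3 array. The log2 of their summed signal was 16.23 and 16.18 at day 3 and 16.14 and 16.11 at day 7, and its part in these falls was not tested. Trophic factors also declined: Gdnf went from 10.15 and 10.06 to 7.18 and 7.37, and fell by 2.83 ± 0.17 (SE, adjusted p = 1.3e-07), Clcf1 fell by 2.76 ± 0.16 (SE, adjusted p = 1.27e-07) and Shh fell by 1.41 ± 0.16 (SE, adjusted p = 5.63e-05). Timp1 fell by 2.17 ± 0.15 (SE, adjusted p = 4.69e-07). The day 7 levels of Gdnf, Clcf1, Shh and Timp1 were still above those of uninjured nerve, as given above.

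Other genes were higher at day 7 than at day 3. Tyrp1 went from 4.83 and 4.44 at day 3 to 9.05 and 9.01 at day 7, a rise of at least 4.40 ± 0.16 (SE, adjusted p = 2.94e-09). Sorcs1, a sorting receptor, rose by 3.35 ± 0.17 (SE, adjusted p = 4.03e-08), Trpm3 by at least 3.19 ± 0.27 (SE, adjusted p = 3.05e-06), and Gpnmb, from 9.58 and 9.93 to 12.92 and 12.90, by 3.16 ± 0.15 (SE, adjusted p = 4.03e-08). The synaptic genes Gria1, a glutamate receptor subunit, and Lrrtm4, an adhesion protein, rose by 2.85 ± 0.18 (SE, adjusted p = 2.41e-07) and at least 2.63 ± 0.19 (SE, adjusted p = 9.19e-07). Dlk1 rose by 2.44 ± 0.20 (SE, adjusted p = 2.77e-06), Mest by 1.61 ± 0.20 (SE, adjusted p = 0.000119), Prss12, a neuronal protease, by 2.58, Nkd1, an inhibitor of Wnt signals, by 2.54, and Cyp39a1, an oxysterol hydroxylase, by 2.51. Egr3 rose by 2.23 ± 0.18 (SE, adjusted p = 1.88e-06) and Kcnj10 by 2.16 ± 0.20 (SE, adjusted p = 6.2e-06). Some genes of division were lower: 10 of 23 mitotic genes were lower than at day 3, with a median difference of -0.43, and between 3 and 5 were lower when any of the day 3 or day 7 arrays was left out. Mki67 differed by -0.12 (adjusted p = 0.686).

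**Figure D4:**
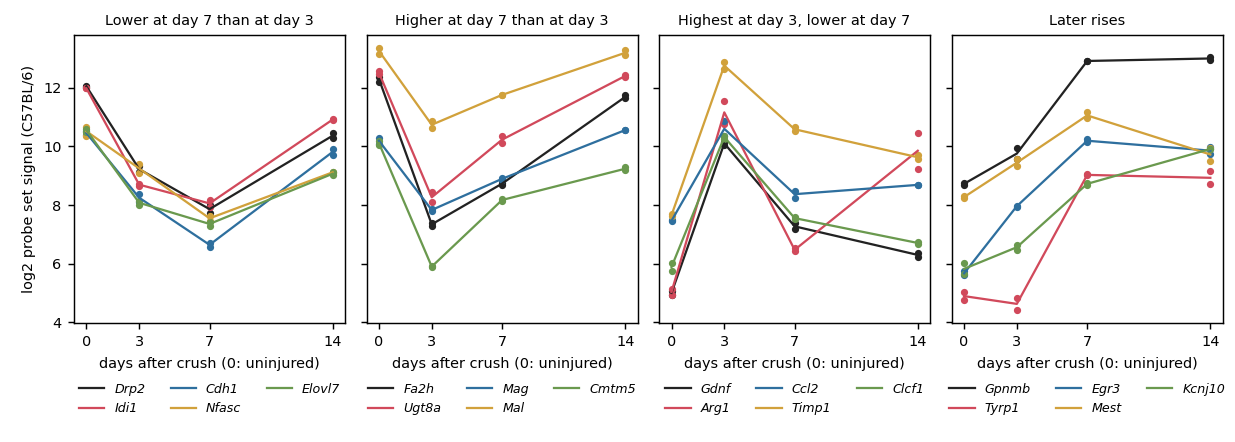
Log2 probe set signal in C57BL/6 nerve against days after crush, with 0 for uninjured nerve, 1 point per array and lines through the means of the 2 arrays. From left to right the panels hold genes lower at day 7 than at day 3 (Idi1 and Drp2 among them), genes higher at day 7 than at day 3 (Ugt8a, Mag), genes highest at day 3 (Arg1, Gdnf) and genes that rose later (Tyrp1, Gpnmb).

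From day 7 to day 14, 767 genes differed (5.27%), 361 higher (2.48%) and 406 lower (2.79%), and 239 of them (1.64%) by at least 2-fold. This count moved with the pools too, to 314 and 395 without the first and the second day 7 array and to 403 and 410 without either day 14 array. Myelin genes and sterol enzymes rose from day 7 to day 14. Of the compact myelin list 13 of 15 were higher at day 14 than at day 7, and of the sterol enzymes 15 of 17, or between 8 (without the second day 14 array) and 12 of them with 1 array left out. Fam107a went from 4.57 and 5.68 at day 7 to 10.18 and 10.45 at day 14, a rise of at least 5.19 ± 0.25 (SE, adjusted p = 1.37e-08). Ddn rose by 4.53 ± 0.18 (SE, adjusted p = 2.08e-09), Ncmap by 4.03 ± 0.20 (SE, adjusted p = 1.37e-08) and Kcnk1 by 3.85 ± 0.21 (SE, adjusted p = 3.83e-08). Bex1, a brain-expressed adaptor, rose by 3.72, Mme, the peptidase neprilysin, by 3.33, Slc36a2 by 3.27 and Rnase2a, a ribonuclease of granulocytes, by at least 3.27. Idi1 went from 8.18 and 7.93 to 10.91 and 10.92, a rise of 2.86 ± 0.17 (SE, adjusted p = 1.25e-07), and its day 14 arrays lay below its uninjured ones. Mitotic genes fell, in 23 of 23 cases. Fewer mitotic genes, and fewer members of the compact myelin list, passed when any 1 array of either day was left out. The largest falls were those of C1qtnf3, a secreted relative of adiponectin (-3.29 ± 0.28 or lower SE, adjusted p = 4.83e-06), Igfbp2 (-2.24 ± 0.11 SE, adjusted p = 1.16e-08), Wif1 (-2.19 ± 0.14 SE, adjusted p = 2.69e-07), Dlk1 (-2.09 ± 0.20 SE, adjusted p = 1.64e-05) and Clca3a2 (-1.91 ± 0.24 SE, adjusted p = 0.000182). Shh (-1.88), Cthrc1 (-1.86), Crym, a thyroid hormone-binding protein (-1.80), Syt4 (-1.79) and Ncapg, a condensin subunit (-1.78), came after them, and the call of Ncapg was lost without the second array of either day (adjusted p = 0.0644 and 0.0545). Arg1 and Chil3 were higher again at day 14, by 3.38 and 5.48, with day 14 arrays of 10.47 and 9.23 for Arg1 that differed from each other by more than 1.

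The change to day 7 was finally compared with that of WldS nerves, each strain against its own uninjured arrays. The WldS allele and the OlaHsd substrain cannot be told apart in this comparison. The difference between the changes passed the test for 598 genes (4.11%), 420 with a more positive (2.89%) and 178 with a more negative (1.22%) change in WldS, and for 350 (2.41%) the difference was at least 2-fold. Fam107a read 11.63 and 11.72 in uninjured WldS nerve and 10.77 and 11.23 at day 7, and its change differed from that in C57BL/6 by at least 5.65 ± 0.36 (SE, adjusted p = 9.6e-07). Ncmap read 12.23 and 12.78 and 11.16 and 11.54, a difference of 3.98 ± 0.28 (SE, adjusted p = 1.67e-06), and Drp2 11.96 and 12.15 and 11.13 and 11.18, a difference of 3.29 ± 0.18 (SE, adjusted p = 3.84e-07). In all 3 genes both WldS arrays of day 7 lay more than 3 log2 units above both C57BL/6 arrays of day 7. The other most positive differences were those of Cnmd (at least 3.82), Kcnk1 (3.80), Adcy1 (3.36), Cdh1 (3.32), Fam178b (3.26), Plekha7, a junction protein (3.08), and Sema5a (3.04).

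On the other side, Clca3a2 read 4.29 and 4.53 in uninjured WldS nerve and 4.82 and 5.45 at day 7, a difference of -4.87 ± 0.33 (SE, adjusted p = 1.44e-06) from the change in C57BL/6. Tyrp1 read 4.66 and 4.78 and 5.03 and 4.90, a difference of -3.89 ± 0.23 (SE, adjusted p = 5.38e-07). At day 7 both genes lay about 4 log2 units or more above every WldS array in the C57BL/6 arrays. Both WldS means of Clca3a2, Tyrp1 and Gria1, and the uninjured C57BL/6 mean of these genes and of Lrrtm2, lay below the filter, so the sizes of these differences rest partly on dim values. Gria1 (-3.71), Epha5 (-3.02), the endocytic protein Sh3gl3 (-2.53), Fgf5 (-2.44), Btc (-2.28), Gadd45a (-2.28), Lrrtm2 (-2.28) and Pou3f1 (-2.27) completed the 10 most negative. The call of Gadd45a was lost when any array other than the second uninjured or the first day 7 WldS array was left out (adjusted p between 0.0844 and 0.16). The other probe set of Fgf5 differed by 0.05 between day 7 and uninjured C57BL/6 nerve, and those of Plekha7 by -1.30 and -0.26. Of 23 mitotic genes limma called 0 different between the strains' changes, and 9 passed at an unadjusted p below 0.05, each with a more negative change in WldS; 1 was called without the second uninjured C57BL/6 array and 2 without the second uninjured WldS array. Of 22 macrophage markers 1 was called, with a more negative change in WldS. That count was 0 in 5 of the 8 fits that left out 1 array, while leaving out the first day 7 WldS array gave 2 with a more positive change, and leaving out the second uninjured WldS array 2 with a more positive and 3 with a more negative change. Of the sterol enzymes 5 of 17 and of the compact myelin list 8 of 15 had a more positive change in WldS, and of the sterol enzymes 8 without the second uninjured WldS array, 4 without the first day 7 WldS array and 3 without any other array of these groups. The first uninjured WldS array had the highest 3'/5' index of the series (3.81), and 416 genes passed without it and the other array of high index. The second uninjured WldS array had the highest summed signal of skeletal muscle markers, 10.96 on the log2 scale against 9.14 to 9.80 in the other 15 arrays. The count of 598 fell to 302 and 369 without the first and second uninjured C57BL/6 array, to 287 and 235 without the day 7 ones, and to 362 without the first uninjured WldS array and 396 without the second WldS day 7 array, and rose to 1647 without the second uninjured WldS array.

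**Figure D5:**
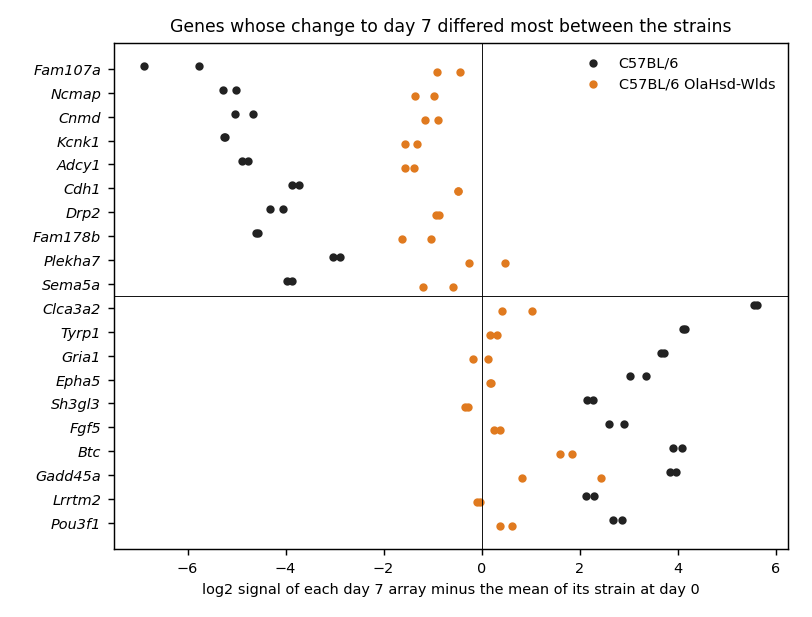
Log2 signal of each day 7 array minus the mean of its strain's uninjured arrays (horizontal axis) for the 10 genes with the most positive and the 10 with the most negative difference between the strains' changes. Black points are C57BL/6 and orange points C57BL/6 OlaHsd-Wlds, 2 arrays each. The genes were chosen for the difference, which runs from -4.87 for Clca3a2 to 5.65 for Fam107a.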

How the data were processed

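RNA of 16 pools of mouse sciatic nerve was hybridised to Affymetrix mouse arrays. The authors deposited log2 signals of 45101 probe sets per array, whose values lie on a log2 scale and whose array medians run from 6.42 to 6.49. GCOS 1.4, RMA, limma and Partek are named, with no role, per the submitters' processing notes, and the values were used as deposited. Per the labels' protocols, cRNA was prepared from 10 µg of total RNA. The number of arrays and, for dim genes, the background limit the precision, and array signals carry no read depth.

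The 64 control probe sets were left out, 34945 probe sets carried 1 gene symbol in the platform annotation, 932 several and 9160 none, and 18032 of the 18193 genes were matched to RefSeq by gene ID. A gene was tested where its probe set's mean over all arrays was at or above the 30th percentile of probe sets. Group means were fitted to all 16 arrays (8 residual and 5.822 prior degrees of freedom) with limma 3.58.1 in R 4.3.3, two-sided, with Benjamini-Hochberg adjustment of the p-values over all genes tested in a comparison. The script was tested on simulated data. Tables and figures were made with Python 3.11.15, pandas 2.3.3, numpy 2.4.6 and matplotlib 3.10.9.

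The members and gene lists were chosen with earlier results of these data known, so lists are given by counts and medians without a test. Named were the 15 largest called rises and falls with groups that did not overlap, members of the myelin, sterol, Schwann cell factor and repair lists, up to 6 called members in each direction of other lists, and, for each further comparison, the 10 largest differences in each direction and called list members. Clone names were passed over, and genes outside this rule are marked. Same-numbered arrays did not deviate together, so replicate numbers were not used as pairs. Alternatives were other filters, normalizations, probe set summaries and variance settings, a replicate block, and leaving out single arrays or the 2 WldS arrays of highest 3'/5' index.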

Additional observations from a re-analysis of the deposited data

Results flagged for a closer look

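The change from uninjured nerve to day 7 differed between C57BL/6 and WldS nerve, by limma's test of the difference itself, for 598 genes. The most positive differences, WldS minus C57BL/6 on the log2 scale, were those of Fam107a (5.65), Ncmap (3.98), Cnmd (3.82), Kcnk1 (3.80), Adcy1 (3.36), Cdh1 (3.32), Drp2 (3.29), Fam178b (3.26), Plekha7 (3.08) and Sema5a (3.04). The most negative were those of Clca3a2 (-4.87), Tyrp1 (-3.89), Gria1 (-3.71), Epha5 (-3.02), Sh3gl3 (-2.53), Fgf5 (-2.44), Btc (-2.28), Gadd45a (-2.28), Lrrtm2 (-2.28) and Pou3f1 (-2.27). Groups of 2 arrays are too small for a test of outlying samples within a group. The second uninjured WldS array had the highest summed signal of the skeletal muscle markers, 10.96 on the log2 scale, against 9.14 to 9.80 in the other arrays.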

How the results depend on the processing

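With 2 pools a group, the counts of genes moved with the arrays and settings used. Leaving out 1 array gave 3585 to 4274 genes for day 7 against uninjured nerve, 1123 to 2669 for day 7 against day 3, 314 to 410 for day 14 against day 7 and 235 to 1647 for the difference between strains. A 2-fold minimum left 1513, 529, 239 and 350 genes. Fitting only the groups compared gave 1836 genes for day 14 against day 7 and 301 for the difference between strains. The other settings left these counts within 1.5 times. The deposited values gave 54.4% of calls at day 7 as higher and cyclic loess 50.1%. The 30 largest changes kept their direction and call in all 417 gene and setting pairs. They had been chosen from these same values for their size and call, so this says little of smaller changes. For day 7 against uninjured nerve, other called list members lost their call in some settings, most often when 1 array was left out. Mpp6 alone reversed, from a fall to a difference of 0.063 between day 7 and day 3, when probe sets of a gene were averaged; the cause was not tested. With the replicate number as a block, 5004, 2695, 698 and 521 genes passed in the 4 comparisons. Deviations of same-numbered uninjured and day 7 arrays correlated at 0.043, and over all pairs of groups between -0.582 and 0.193, so the numbers do not pair the arrays.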

Other observations

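Genes of energy metabolism and of protein handling were not covered above. Of 27 subunits of oxidative phosphorylation 9 fell and 1 rose (16.4% and 19.6% of all genes), with Cox7a1, a muscle-type subunit of cytochrome oxidase, at a difference of -1.20 ± 0.17 (SE, adjusted p = 8.35e-05). The summed signal of the skeletal muscle markers was 9.43 and 9.80 before and 9.24 and 9.25 at day 7, on the log2 scale, and its part in this fall was not tested. In glycolysis 6 of 20 rose and 7 fell: the glucose transporter Slc2a3 rose by 1.26 ± 0.13 (SE, adjusted p = 4.45e-06), and Pdk4, which shuts pyruvate out of mitochondria (-1.86), and the aldolase Aldoc (-1.46) fell. Among heat shock and unfolded protein genes, the chaperone Hspb1 fell by 1.98, and Hspa1a and Hspa1b, near-identical copies whose probes may share signal, fell too (-1.43 and -1.39), while the luminal protein Sdf2l1 rose by 1.12. The iron exporter Slc40a1 rose by 1.51 ± 0.22 (SE, adjusted p = 9.03e-05) and the siderophore-binding protein Lcn2 fell by 1.27 or more. In the TGF-beta family 4 of 19 rose and 4 fell (21.1% each, against 19.6% and 16.4% of all genes). The receptor Tgfbr1 rose by 1.24 ± 0.13 (SE, adjusted p = 5.77e-06), and Bmp7, Inhbb and Bmp4, which are ligands or ligand subunits, fell (-1.82, -1.22 and -1.06). H2-DMa, which loads peptides onto MHC class II, fell by 1.95 ± 0.18 (SE, adjusted p = 1.28e-06), while 6 of 15 antigen presentation genes rose, or 1 without the first uninjured or the second day 7 array and 3 without the first day 7 array.

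Of clock genes 1 of 14 was called, Hlf, an output gene, which fell by 1.88 ± 0.28 (SE, adjusted p = 0.000109). In 3 others, picked out after their values were seen and not called, the 2 uninjured pools lay more than 1 log2 unit apart. Dbp, an output gene of the clock, read 11.75 and 10.40 before injury and 8.79 and 10.11 at day 7, and Nr1d1, a repressor of the clock, 9.26 and 7.65 before and 7.21 and 7.60 after injury. Arntl, its activator, read 7.23 and 8.46 and then 7.77 and 7.36, with the higher uninjured pool the one in which Dbp and Nr1d1 were lower. Among mast cell markers 3 of 8 were called lower, and none without the second uninjured array or either day 7 array. Eif2s3y, a Y-linked gene, read 8.41 and 8.61 before injury and 9.12 and 9.15 at day 7.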
